A study of Mus musculus with 15 samples.

Results

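The genes of the epidermal differentiation complex were followed in sorted epithelial cells from the thymus, the skin, the colon and the lung of the mouse. Members were chosen by name alone: every protein-coding gene whose symbol begins with Lce or Sprr, and Lor, Flg, Flg2, Hrnr, Rptn, Tchh, Crnn, Ivl, Crct1 and Kprp. This rule gave 46 genes of the 50600 in the tables. They were 14 Lce1 genes, 6 Lce3 genes, Lce6a, 2 Sprr1 genes, 11 Sprr2 genes, Sprr3, Sprr4, 6 genes of the fused S100 family (Flg, Flg2, Hrnr, Rptn, Tchh and Crnn), and 4 other genes (Lor, Ivl, Crct1 and Kprp). All lie on chromosome 3 of the GRCm38 build, between the start of Lor at base 92080271 and the end of Tchh at base 93449077. Sprr2c-ps and Sprr2g carry no protein-coding annotation and were left out.

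The study prepared polyA RNA from 5 kinds of primary epithelial cell, each sorted from C57BL/6J males at 8 weeks of age: the cortical (cTEC) and medullary (mTEC) cells of the thymus, and cells of the skin, colon and lung. Each group had 3 libraries, each from the pooled cells of 5 mice, and the labels name no transgene, deletion or treatment in any group. The stated interest was in how epithelial cells come to differ in MHC class I, so the genes described here were not its subject. Thymus and skin were prepared with the KAPA RNA Stranded PolyA kit, lung and colon with KAPA RNA HyperPrep PolyA, and in any comparison between these sets kit and organ cannot be told apart. The surface markers used for sorting are not given in the sources used here. Pools of mice are the replicates, and p-values measure the spread between pools.

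Libraries held 12946533 to 41978665 reads counted in genes, a 3.24-fold range. The marker genes followed the labels: Psmb11, a proteasome subunit of the thymic cortex, stood at 193 to 593 CPM in cTEC and 14.3 to 28.3 CPM in mTEC, and Aire, the medullary regulator of peripheral antigen expression, at 242 to 613 CPM in mTEC and 26.3 to 67.0 CPM in cTEC. CPM is the normalised read count, in reads of a gene among 1000000 gene reads, with library totals scaled by the TMM method. Summed over fixed marker lists, colon markers came to 13315 to 15792 CPM in colon and lung markers to 27527 to 36217 CPM in lung. Skin replicate 3 stood apart from the other skin libraries: 10 basal keratinocyte markers summed to 36667 and 43563 CPM in skin replicates 1 and 2 and to 18470 CPM in replicate 3, while 19 hair follicle markers summed to 386, 731 and 3071 CPM. Of 10 fibroblast markers, all were detected in skin, with sums of 4143, 1416 and 7924 CPM.

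The complex codes for the building blocks of the cornified envelope, the cross-linked protein shell that replaces the plasma membrane as keratinocytes die and form the outer barrier of the skin. Involucrin (Ivl) forms the first scaffold, small proline-rich proteins (Sprr) and loricrin (Lor) are cross-linked onto it by transglutaminases, and late cornified envelope proteins (Lce) are added near the surface. The fused S100 proteins, among them filaggrin (Flg) and trichohyalin (Tchh), bind keratin filaments or stiffen hair and tongue structures. Medullary thymic epithelial cells are known for transcribing many genes of other organs at low levels, which lets developing T cells meet those proteins in the thymus.

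More members were detected in mTEC than in any other group, while skin had the highest sum of uniquely placed reads. A member was counted as detected with at least 1 read in each of the 3 libraries and at least 10 reads over the group. By this count 37 of the 46 members were detected in mTEC, 13 in cTEC, 15 in skin, 14 in colon and 5 in lung. Of 21764 protein-coding genes, 79.0% were detected in mTEC, 68.3% in cTEC, 58.3% in skin, 66.4% in colon and 68.6% in lung. The share of members detected in mTEC was thus close to that of all protein-coding genes. In each of the other groups the share of members was below that of all protein-coding genes. All 46 members together had 14910 reads in mTEC and 51182 in skin. Their sums were 326, 204 and 207 CPM in mTEC, 905, 1316 and 1615 CPM in skin, 457, 334 and 343 CPM in colon, 152, 131 and 81.2 CPM in cTEC and 35.9 to 49.6 CPM in lung. RSEM expected counts include reads shared by the Sprr2a copies. With them, colon had the highest mean sum, at 1863 ± 515 (SD, n = 3) of every 1000000. On this scale skin was at 1107 ± 470 and mTEC at 1019 ± 95.6, and the libraries of these groups overlapped. A level of at least 1 CPM in each library was reached by 14 members in mTEC (63.6% of protein-coding genes), 10 in skin (52.5%), 6 in colon (54.7%), 5 in cTEC (57.9%) and 4 in lung (56.8%). In bulk samples, fewer cells of a type and less RNA per cell cannot be told apart.

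**Figure D1:**
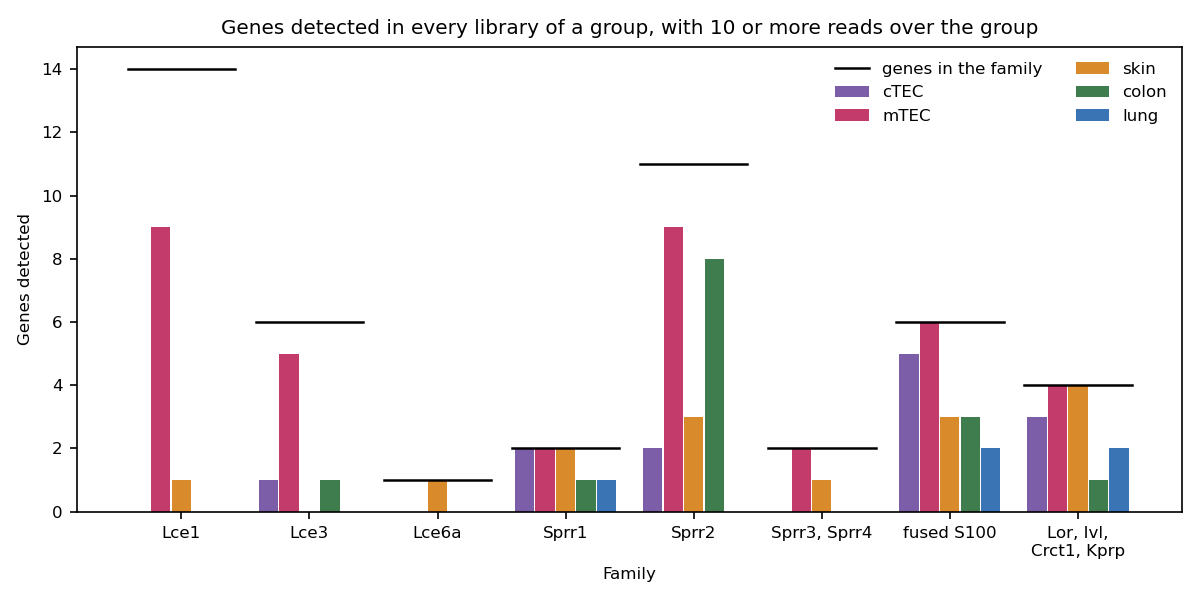
Number of genes detected (vertical axis) in each family (horizontal axis), with a bar for each group and a black line at the size of the family. The mTEC bars reach 9 of 14 Lce1 genes and 5 of 6 Lce3 genes, where skin has 1 and 0.

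The families were spread unevenly over the groups. In mTEC, 9 of 14 Lce1 genes and 5 of 6 Lce3 genes were detected, whereas skin had 1 Lce1 gene and no Lce3 gene by the same count. Of 11 Sprr2 genes, mTEC had 9, colon 8, skin 3, cTEC 2 and lung none. All 6 fused S100 genes were detected in mTEC, 5 in cTEC, 3 each in skin and colon and 2 in lung. All 4 of Lor, Ivl, Crct1 and Kprp were detected in both mTEC and skin.

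Lor, Sprr1a and Tchh were detected in all 5 groups. Detected in mTEC and in no other group were 15 members, against 5.35% of protein-coding genes: Lce1a1, Lce1d, Lce1e, Lce1f, Lce1g, Lce1h, Lce1i, Lce1j, Lce3a, Lce3b, Lce3d, Lce3e, Sprr2e, Sprr2i and Sprr3. Besides these, Crnn, Flg, Lce3c, Rptn, Sprr2b, Sprr2d, Sprr2f and Sprr2k met the count in mTEC and not in skin. This made 23 members in all, against 20.9% of protein-coding genes. Missing the count did not always mean absence from skin. Flg had 161 reads in skin, Sprr2d 74 and Sprr2f 59, with none of them in skin replicate 1, while others such as Sprr2k had no skin read. In skin and not in mTEC, Lce6a was the sole member, and among protein-coding genes the share was 0.234%. In all, 24 members were detected in mTEC and not in cTEC, where the share of protein-coding genes was 10.9%, and none was detected in cTEC and not in mTEC.

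These counts depend on the read threshold and on how finely the libraries sampled rare transcripts. With at least 3 reads over the group as the limit, mTEC had 45 members (84.7% of protein-coding genes), skin 32 (69.2%) and cTEC 30 (77.5%). With at least 10 reads in each library, mTEC had 18 (68.5%), skin 11 (53.4%), colon 10 (59.0%), cTEC 7 (61.2%) and lung 4 (62.1%). Some libraries held few genes at very low counts: 533 genes had 1 read in skin replicate 1, 600 in cTEC replicate 3 and 607 in skin replicate 3. The mTEC libraries had 3196 to 3468 such genes. Low counts were also clumped in these skin and cTEC libraries. In skin replicate 1, 105 genes had 3 reads and 277 had 8. In skin replicate 3, 260 had 3 and 374 had 7, and in cTEC replicate 3, 388 had 3 and 457 had 6. The mTEC libraries had 1092 to 1204 genes at 3 reads and 368 to 387 at 8. Skin replicate 1 also had 46.9% of its reads outside genes, against 35.4% and 31.8% in skin replicates 2 and 3. Its reads on the sense strand were 8.43 times those on the opposite strand, against 12.97 and 17.01 times. Of the members, 27 had no read in skin replicate 1 and 17 had none in skin replicate 3, against 1 to 7 in the mTEC libraries. The part of these properties in the skin and cTEC counts, and in the members detected in mTEC and not there, was not tested.

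**Figure D2:**
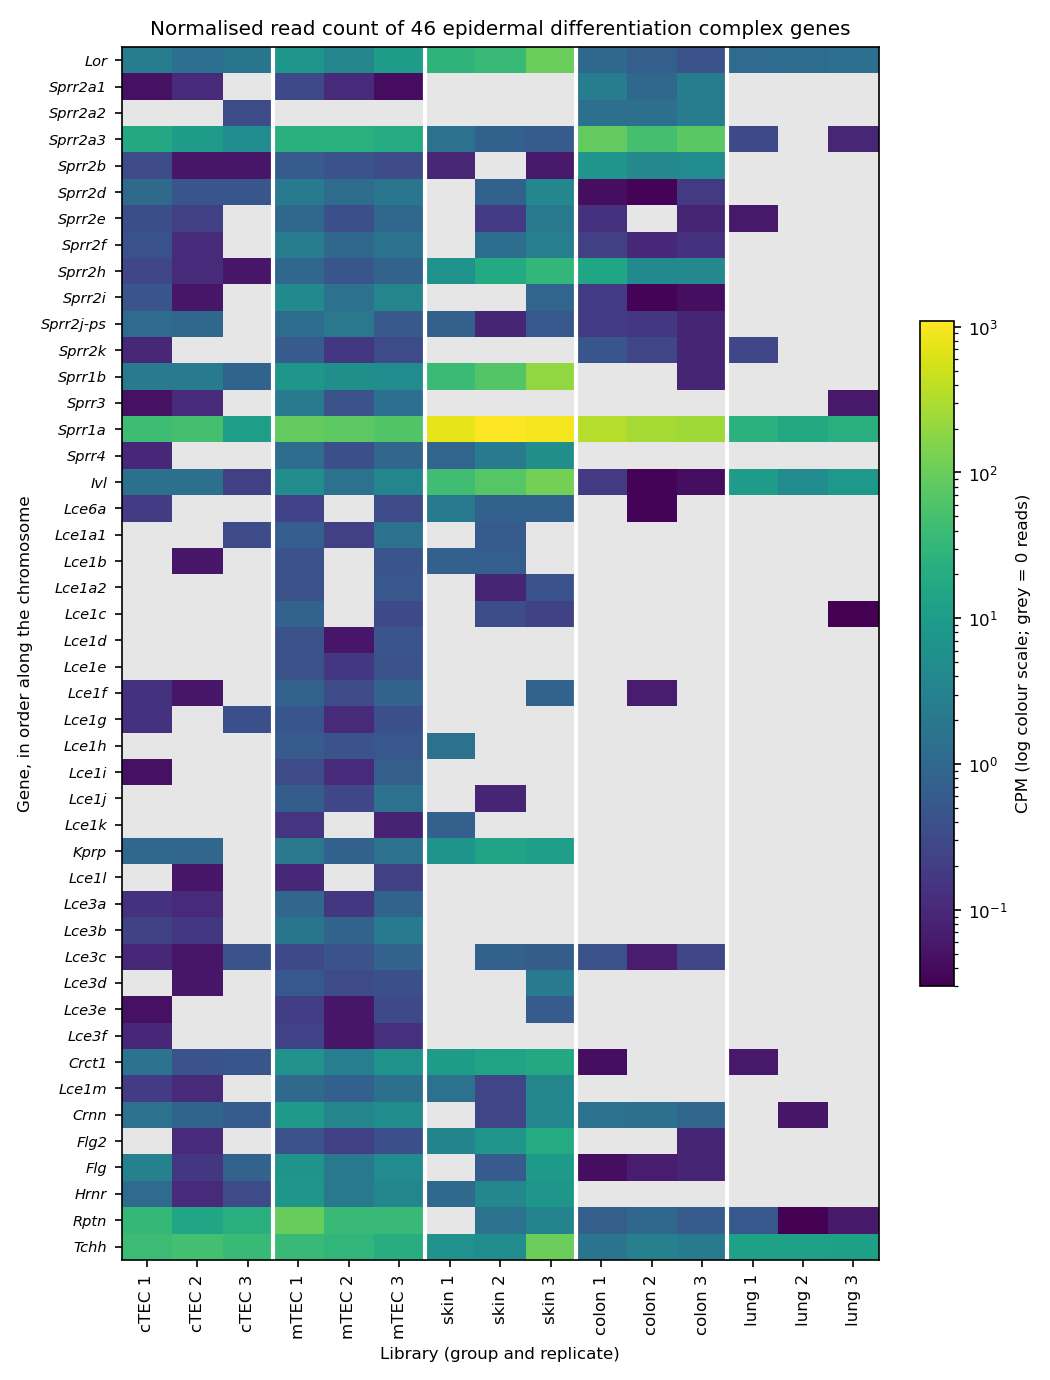
Level of each of the 46 members (rows) in each of the 15 libraries (columns), in CPM on a log colour scale, with grey where there was no read and genes in order along the chromosome. Of the 21 Lce rows, all are filled in mTEC replicates 1 and 3 and 15 in replicate 2, against 3 to 10 in the cTEC libraries, 5 to 8 in skin, 1 to 3 in colon and 0 to 1 in lung, and Sprr1a has the brightest cells, at 749 to 1070 CPM in skin.

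Pairs of groups were tested with edgeR's quasi-likelihood F-test on all 19107 genes that passed the filter on low counts, and 30 of the 46 members passed that filter. A member could pass through the group where it is high, so the counts below describe the genes and are set beside the share of all tested genes called the same way at an adjusted p under 0.05 (Benjamini-Hochberg). Every one of the 30 members differed among the 5 groups, as did 90.6% of all tested genes.

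Between the thymic compartments, mTEC had the higher levels for most members. Of the members, 10 were higher in mTEC than in cTEC (15.2% of tested genes were) and none was lower (9.45% were). At an unadjusted p under 0.05, 18 members were higher in mTEC and none in cTEC, and DESeq2 called 13 and none. Those called by edgeR were Lor, Ivl, Crct1, Hrnr, Sprr1a, Sprr1b, Sprr2i, Sprr4, Lce1m and Lce3b. The median log2 difference over the 30 tested members was 1.82, against 0.07 over all tested genes. With the replicate number of the thymic libraries as a block the count was 6 (14.9% of tested genes): Crct1, Hrnr, Lor, Sprr1a, Sprr2i and Sprr4 passed. The 12 thymocyte and T cell markers, 11 of them detected in each thymic group and none without reads, summed to 107 to 149 CPM in cTEC and 35.5 to 61.6 CPM in mTEC. The 13 myeloid markers ran the other way, with 76.5 to 94.2 CPM in cTEC and 174 to 305 CPM in mTEC, and 4 were higher and 1 lower in mTEC. Markers of other epithelia were also higher in mTEC: 8 of 12 colon markers (106 to 222 CPM, against 57.5 to 73.5 in cTEC; median log2 difference 1.99) and 7 of 12 lung markers (96.04 to 271 CPM, against 45.7 to 62.1; median 2.19), with none lower. All 12 colon, 12 lung and 13 myeloid markers were detected in mTEC, and 9, 10 and 12 of them in cTEC, where the colon marker Slc26a3 had no read. Fibroblast markers summed to 311 to 577 CPM in cTEC and 203 to 210 CPM in mTEC (1 of 10 higher and 2 lower in mTEC), and endothelial markers to 14.4 to 24.8 and 24.5 to 46.3 CPM (1 of 10 each way). The part of any of these cell types in the differences of the complex was not tested. None of the 10 calls passed under every alternative setting; Crct1 was lost in 1 of them, a test for more than a 2-fold difference (edgeR adjusted p = 0.0547). Leaving out 1 library gave 2 to 17 calls, and in each of the following the share of all tested genes called higher in mTEC lay on the same side of its 15.2% with all libraries as the count did of 10. There were 2 without mTEC replicate 1 (7.66% of tested genes), 3 without mTEC replicate 3 (11.1%), 4 without cTEC replicate 2 (9.04%), 5 without cTEC replicate 3 (9.70%), 16 without skin replicate 1 (18.1%) and 17 without skin replicate 3 (20.4%).

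Set against skin, mTEC had the lower level for the main envelope precursors and the higher level for some Sprr2 genes, Rptn and Lce3b. There were 6 members higher in mTEC (34.6% of tested genes) and 9 higher in skin (22.4%). Higher in skin were Lor, Ivl, Sprr1a, Sprr1b, Sprr2h, Flg2, Kprp, Crct1 and Lce6a. Higher in mTEC were Rptn, Sprr2a1, Sprr2a3, Sprr2b, Sprr2i and Lce3b. Of these, Sprr2a1 had 9 reads in mTEC, too few to count as detected there, and 0 in skin. The median over tested members was 0.08 on the log2 scale, against 0.22 over all tested genes. Of these 15 calls, 11 passed under every alternative; Crct1, Lce6a, Sprr2a1 and Sprr2i did not. Without skin replicate 3, the members higher in mTEC numbered 12 (38.8% of tested genes).

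The cTEC libraries were below skin for most of the members called. Rptn and Sprr2a3 were the 2 members higher in cTEC (32.5% of tested genes), and 12 were higher in skin (23.9%). Those were Lor, Ivl, Sprr1a, Sprr1b, Sprr2h, Sprr4, Flg2, Hrnr, Kprp, Crct1, Lce1m and Lce6a. The median was -2.47 on the log2 scale, against 0.19 over all tested genes. Without skin replicate 3, 4 members were higher in cTEC (33.5% of tested genes). These comparisons share the skin libraries with the one before, so their calls are not independent of each other.

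Colon was low in most members and high in a few of the Sprr genes. Against colon, 21 members were higher in mTEC (36.9% of tested genes) and 6 were higher in colon (29.1%): Sprr1a, Sprr2a1, Sprr2a2, Sprr2a3, Sprr2b and Sprr2h. Against the same colon libraries, 18 members were higher in skin (27.4%) and 4 higher in colon (30.8%), namely Sprr2a1, Sprr2a2, Sprr2a3 and Sprr2b. The median log2 difference was 3.97 for mTEC against colon, or 3.56 with the 8 members at 0 reads in a group set at the bound that 3 reads allow. For skin against colon it was 3.72, or 3.38 with 9 members at that bound. Over all tested genes the medians were 0.18 and -0.05.

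Lung was the group with the fewest members detected. Against lung, 27 members were higher in mTEC (34.9%) and 25 were higher in skin (26.7%). None was higher in lung, where 28.6% and 33.7% of tested genes were called; at an unadjusted p under 0.05 there was 1 such member against mTEC and none against skin, and DESeq2 called none. Of the 30 tested members, 21 had no read in 1 of the groups compared, and with these at their bound the medians were 4.96 for mTEC and 5.14 for skin, against 0.14 and -0.15 over all tested genes. The fitted medians were 7.23 and 6.37.

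Loricrin, a major protein of the mature envelope, was highest in skin and next highest in mTEC. Lor was at 28.2, 35.9 and 100.6 CPM in skin, 7.58, 3.57 and 9.79 CPM in mTEC, and 2.43, 1.39 and 1.79 CPM in cTEC. It was at 1.198, 1.24 and 1.39 CPM in lung and 0.984, 0.733 and 0.446 CPM in colon. No mTEC library reached a skin library, and no cTEC library reached an mTEC library, while the lowest cTEC library met the lung range. On the log2 scale mTEC was 1.90 ± 0.48 (SE) above cTEC (edgeR adjusted p = 0.0116), and its difference from skin was -2.97 ± 0.47 (adjusted p = 0.000108).

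Involucrin had the same order in the thymus and skin but a different place for lung. Ivl stood at 44.7, 69.4 and 120 CPM in skin and at 5.22, 1.56 and 3.68 CPM in mTEC. It stood at 1.43, 1.45 and 0.224 CPM in cTEC, at 9.89, 4.77 and 8.01 CPM in lung, and at 0.0333 to 0.179 CPM in colon. Skin lay above all other libraries, and the lung range met the mTEC range at its lower end. The difference of mTEC from skin was -4.48 ± 0.57 on the log2 scale (edgeR adjusted p = 1.49e-05), and that of mTEC from lung was -1.11 ± 0.52 (adjusted p = 0.0746), which did not pass. Skin was 3.37 ± 0.53 above lung (adjusted p = 7.06e-05). Against cTEC, mTEC was 1.74 ± 0.59 higher (adjusted p = 0.0422), and with the replicate block the adjusted p was 0.054.

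Crct1 (cysteine-rich C-terminal 1) and Kprp (keratinocyte proline-rich protein), a pair of lesser-known members of the complex, were read mainly in skin and thymus. Crct1 was at 9.59, 13.9 and 17.1 CPM in skin, 6.23, 2.73 and 6.33 CPM in mTEC, and 1.62, 0.445 and 0.503 CPM in cTEC, with 1 read in colon and 2 in lung. The mTEC level was 2.55 ± 0.61 above cTEC on the log2 scale (edgeR adjusted p = 0.00858) and differed from skin by -1.41 ± 0.56 (adjusted p = 0.0449). The second of these calls was lost without any 1 of the mTEC libraries (adjusted p = 0.16 without mTEC replicate 2). Kprp was at 6.77, 14.1 and 10.6 CPM in skin, 1.96, 0.781 and 1.56 CPM in mTEC, and 1.05, 0.946 and 0 CPM in cTEC, with no read in colon or lung. Skin was above mTEC in every library, at a log2 difference of -2.86 ± 0.82 for mTEC (adjusted p = 0.0121).

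**Figure D3:**
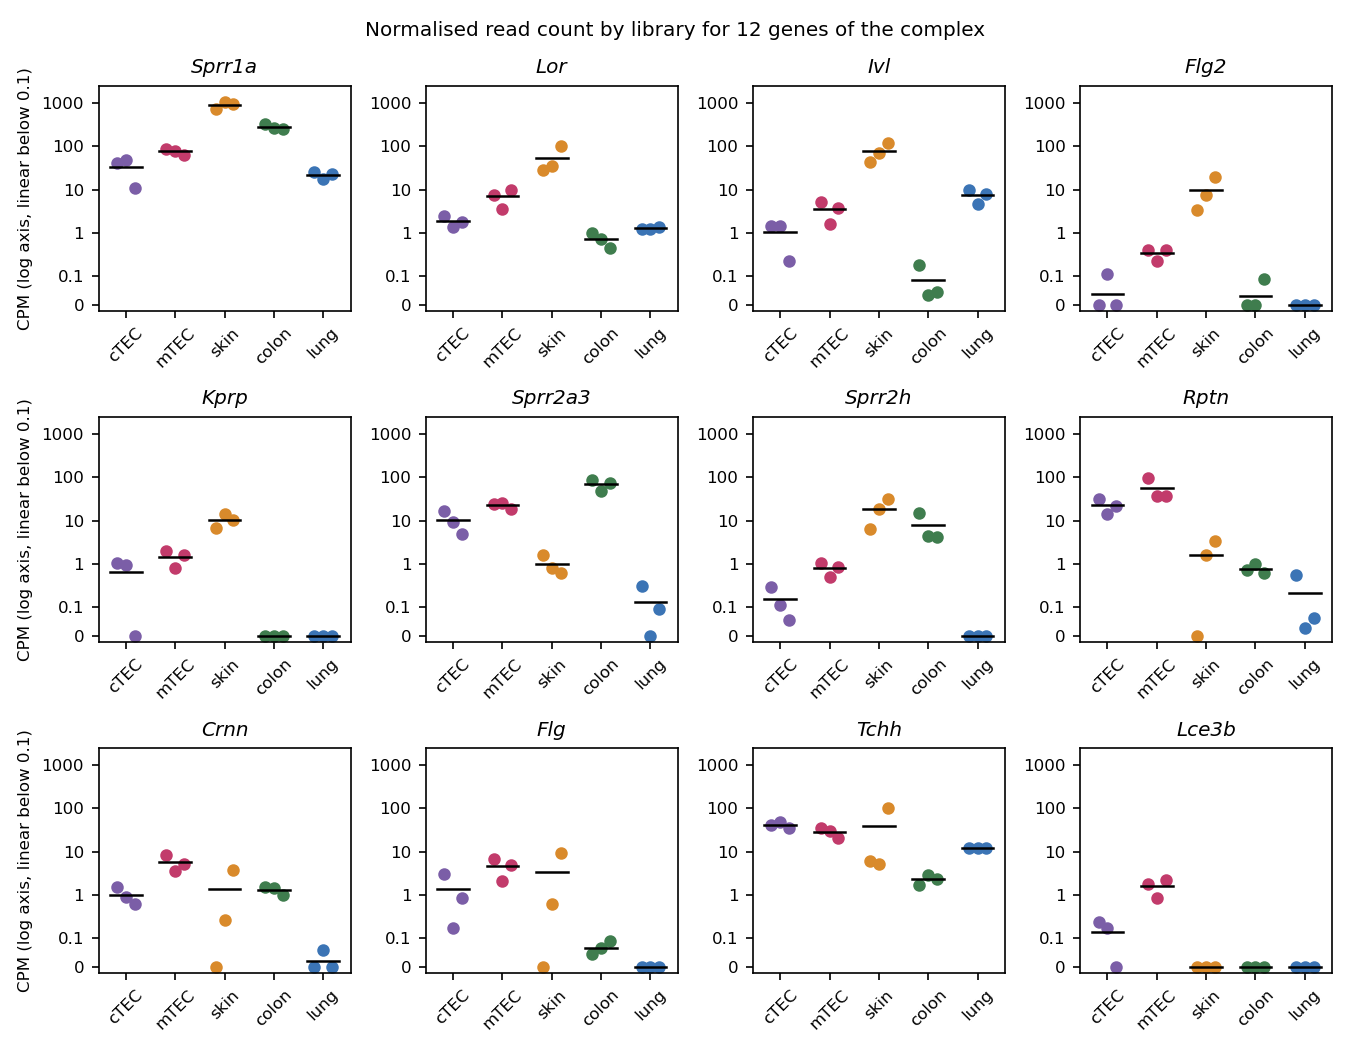
CPM (vertical axis, logarithmic and linear below 0.1) in each library (points) of the 5 groups for 12 members, with a line at the mean of the 3 libraries. Skin libraries lie highest for Lor, Ivl and Sprr1a, the thymic libraries for Rptn, and colon for Sprr2a3, while skin replicate 3 lies far from the other skin libraries for Tchh.

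The Sprr1 genes, the small proline-rich proteins tied to squamous stress and repair, gave most of the reads of the complex in skin. Sprr1a was at 749 to 1070 CPM in the 3 skin libraries, 247 to 337 CPM in colon, 62.8 to 89.0 CPM in mTEC, 10.9 to 48.8 CPM in cTEC and 17.5 to 25.1 CPM in lung. Skin, colon and mTEC did not overlap, while cTEC and lung did. The difference of mTEC was 1.17 ± 0.38 from cTEC (edgeR adjusted p = 0.0352), -3.60 ± 0.41 from skin (adjusted p = 5.02e-06) and -1.89 ± 0.38 from colon (adjusted p = 0.000565), all on the log2 scale. In TPM, which corrects for transcript length, Sprr1a averaged 1374 ± 376 (SD, n = 3) in skin and 165 ± 31.2 in mTEC.

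Sprr1b had a narrower range of tissues than Sprr1a. It was at 39.0, 66.1 and 197 CPM in skin, 7.83, 5.63 and 4.98 CPM in mTEC and 2.38, 2.39 and 0.895 CPM in cTEC. Lung had no read and colon had 0.0891 CPM in 1 library. The skin libraries were the highest, and skin, mTEC and cTEC did not overlap. The log2 difference of mTEC from skin was -4.04 ± 0.58 (edgeR adjusted p = 8.16e-05), and from cTEC it was 1.69 ± 0.58 (adjusted p = 0.0494), which rose to 0.0571 with the replicate block.

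The 3 Sprr2a genes, the small proline-rich proteins with the highest level in colon, are near copies of each other, and their coding sequences are shown because near-identical copies limit how reads can be counted. The following are the 252 coding bases of each on the plus strand of GRCm38, in the GENCODE M21 models, with capitals at the 3 positions where the copies differ. Sprr2a1 lies at chr3:92219092-92219343, Sprr2a2 at chr3:92253905-92254156 and Sprr2a3 at chr3:92288588-92288839.
Sprr2a1: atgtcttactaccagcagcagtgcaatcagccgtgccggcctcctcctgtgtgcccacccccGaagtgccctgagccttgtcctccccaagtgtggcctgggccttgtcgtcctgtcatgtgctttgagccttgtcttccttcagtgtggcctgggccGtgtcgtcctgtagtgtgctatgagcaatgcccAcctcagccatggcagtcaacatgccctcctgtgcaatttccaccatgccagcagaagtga
Sprr2a2: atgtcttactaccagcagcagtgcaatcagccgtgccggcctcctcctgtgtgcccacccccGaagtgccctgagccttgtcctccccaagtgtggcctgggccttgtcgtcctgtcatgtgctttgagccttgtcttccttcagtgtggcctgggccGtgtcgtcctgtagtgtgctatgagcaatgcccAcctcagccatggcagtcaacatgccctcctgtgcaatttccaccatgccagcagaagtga
Sprr2a3: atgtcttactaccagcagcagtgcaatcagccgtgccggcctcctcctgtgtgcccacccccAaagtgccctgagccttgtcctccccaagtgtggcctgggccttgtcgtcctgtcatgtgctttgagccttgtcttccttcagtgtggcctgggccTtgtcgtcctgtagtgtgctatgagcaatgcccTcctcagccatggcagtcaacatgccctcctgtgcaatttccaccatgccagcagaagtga
The first pair had 0 differences, and Sprr2a3 had 3.

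Reads from identical copies cannot be placed uniquely, and the deposited tables differ in how they treat them. Of all 50-base windows of the longest transcript, 96.3% in Sprr2a1, 96.5% in Sprr2a2 and 61.1% in Sprr2a3 also occurred in another gene. The uniquely placed reads over all libraries were 154 for Sprr2a1, 139 for Sprr2a2 and 7126 for Sprr2a3, while RSEM, which shares out ambiguous reads, assigned 8170, 197945 and 9915 expected counts. Over the other 43 members, expected counts were within 1.5-fold of the unique reads for 38 and the median ratio was 0.98; Flg (2.16) and Hrnr (2.04) had the highest ratios, and 79.2% and 69.1% of their windows are repeated within the gene itself. The gene model of Sprr2a2 spans Sprr2a1, so the split between them is uncertain, and the 3 loci are better read as 1 sum.

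**Figure D4:**
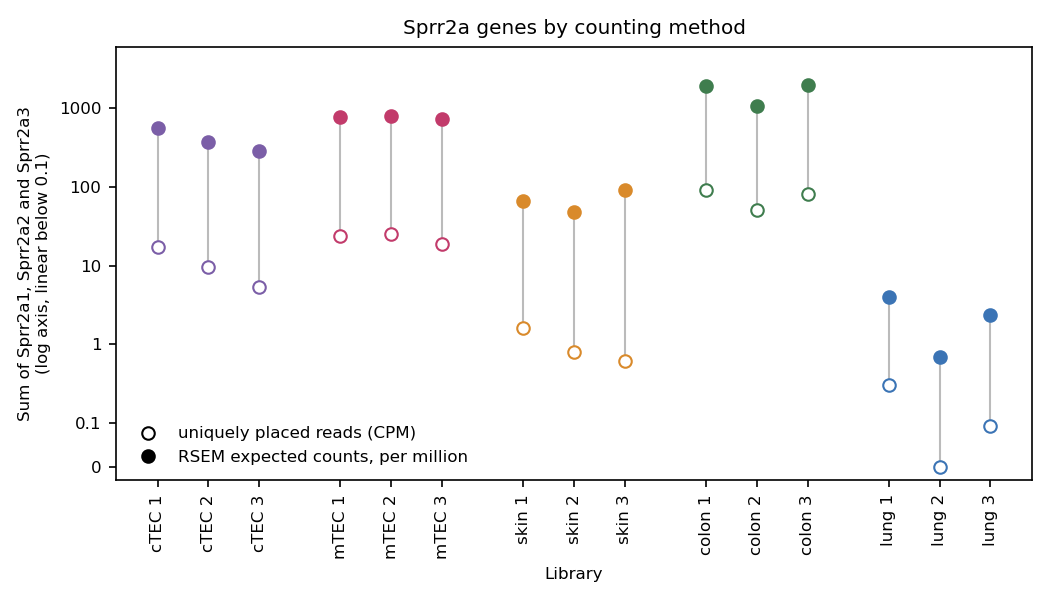
Summed level of Sprr2a1, Sprr2a2 and Sprr2a3 in each library, as CPM on an axis that is logarithmic and linear below 0.1, from uniquely placed reads (open points) and from RSEM expected counts (filled points). Both kinds of count rank colon first, then mTEC, cTEC, skin and lung by the group mean.

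As a sum, the Sprr2a loci were highest in colon and next highest in mTEC. Their uniquely placed reads came to 90.4, 51.4 and 80.8 CPM in colon, 23.95, 25.04 and 18.9 CPM in mTEC, 17.2, 9.63 and 5.31 CPM in cTEC, and 1.60, 0.795 and 0.606 CPM in skin. With RSEM the sums, in expected counts of every 1000000, were 1647 ± 506 (SD, n = 3) in colon, 765 ± 42.6 in mTEC, 407 ± 141 in cTEC, 68.3 ± 21.7 in skin and 2.37 ± 1.68 in lung. No mTEC library overlapped colon, cTEC or skin on either scale. The log2 difference of mTEC from skin was 4.55 ± 0.57 with unique reads (edgeR adjusted p = 1.2e-05) and 3.13 ± 0.46 with expected counts (adjusted p = 6.43e-05), and its difference from colon was -1.71 ± 0.45 and -1.59 ± 0.44 (adjusted p = 0.00363 and 0.00533). Against cTEC neither passed, at 1.08 ± 0.45 (adjusted p = 0.0927) and 0.88 ± 0.43 (adjusted p = 0.16).

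Of the other Sprr2 genes, Sprr2b was highest in colon and Sprr2h in skin and colon. Sprr2b was at 7.24, 4.23 and 4.81 CPM in colon, 0.603, 0.446 and 0.347 CPM in mTEC and at most 0.0940 CPM in skin. Sprr2h was at 6.30, 18.3 and 31.6 CPM in skin, 14.98, 4.33 and 4.19 CPM in colon and 1.05, 0.502 and 0.867 CPM in mTEC. The skin and colon libraries of Sprr2h overlapped and the difference between them did not pass, at 1.26 ± 0.62 on the log2 scale (edgeR adjusted p = 0.0994). Sprr2h was lower in mTEC than in both, by -4.52 ± 0.73 from skin (adjusted p = 0.000212) and -3.26 ± 0.70 from colon (adjusted p = 0.00128). Sprr2b was higher in mTEC than in skin, by 3.03 ± 0.91 (adjusted p = 0.0127), and lower than in colon, at -3.53 ± 0.62 (adjusted p = 0.000279).

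Sprr2i had its highest levels in mTEC, where Sprr2d and Sprr2f were close to skin. Sprr2i was at 4.52, 1.51 and 3.55 CPM in mTEC and at 0, 0 and 0.909 CPM in skin, with 11 reads in cTEC, 6 in colon and none in lung. It was 4.07 ± 1.24 above cTEC on the log2 scale (edgeR adjusted p = 0.0307) and 3.21 ± 1.19 above skin (adjusted p = 0.0347). Sprr2d overlapped between mTEC (2.26, 1.23 and 1.82 CPM) and skin (0, 0.795 and 3.94 CPM), the high value being that of skin replicate 3. Sprr2f was also within the skin range, at 2.56, 1.06 and 1.65 CPM in mTEC and 0, 1.32 and 2.67 CPM in skin. Sprr2e had 52 reads in mTEC and 36 in skin, of which 34 were in skin replicate 3. Sprr2k was read in mTEC and colon, with 23 and 21 reads, and had none in skin. Over all libraries it had 55 sense reads and 23 on the opposite strand, so part of its sense reads may be background.

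Sprr3, the small proline-rich protein of oesophageal and oral epithelium, was read in mTEC and hardly elsewhere. It was at 2.21, 0.446 and 1.39 CPM in mTEC, and had no read in skin or colon, 3 reads in cTEC and 2 in lung. The 84 mTEC reads put mTEC 17.7-fold above a floor of 3 reads over the skin group. As low counts in skin were clumped, this is not a firm lower bound. Of 10 squamous mucosa markers, 2 were higher and none lower in mTEC than in cTEC (15.2% and 9.45% of tested genes), with a median log2 difference of 1.06 (0.07 over all tested genes). Against skin, 2 were higher and 3 lower in mTEC (34.6% and 22.4%), with a median of 0.71 (0.22 over all). Krt13, a keratin of such mucosae at 10.7, 5.80 and 8.49 CPM in mTEC, was 2.82 ± 0.90 above cTEC (edgeR adjusted p = 0.0346) and 6.20 ± 1.21 above skin (adjusted p = 0.000586), while Krt4, at 12.7, 3.74 and 11.2 CPM, passed against neither (adjusted p = 0.0724 and 0.119). Sprr4, by contrast, was shared with skin, at 1.31, 0.390 and 0.953 CPM in mTEC and 0.940, 2.38 and 5.33 CPM in skin, and was 4.47 ± 1.14 above cTEC on the log2 scale (edgeR adjusted p = 0.0174).

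**Figure D5:**
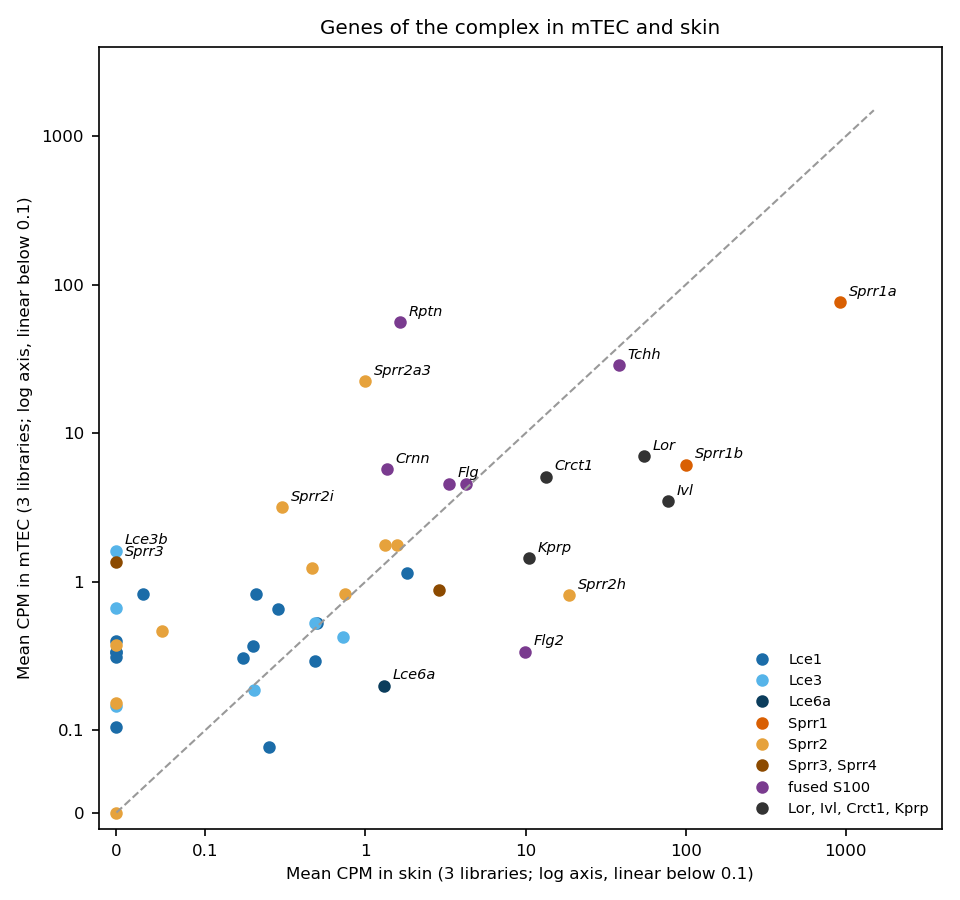
Mean CPM of each member in mTEC (vertical axis) against skin (horizontal axis), both axes logarithmic and linear below 0.1, coloured by family, with equal levels on the dashed line. Sprr1a, Sprr1b, Ivl and Lor lie on the skin side of the diagonal, and Rptn, Sprr2a3, Lce3b and Sprr3 on the mTEC side.

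The 21 late cornified envelope genes together were a small part of the mTEC reads. Their sum was 11.7, 4.41 and 14.7 CPM in mTEC (651 reads), 6.86, 3.71 and 9.45 CPM in skin (271 reads), and 1.33, 0.668 and 1.17 CPM in cTEC (61 reads). Colon had 20 reads and lung 1. The mTEC and skin sums overlapped, while every mTEC sum was above every cTEC sum. Reads came from all 14 Lce1 genes and all 6 Lce3 genes in mTEC, and from 9 and 3 in skin. Low counts were clumped in skin replicates 1 and 3, and the part of this in the skin genes without reads was not tested.

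Of the Lce genes, Lce1b, Lce1f, Lce1h, Lce1m, Lce3b, Lce3c and Lce6a passed the filter on low counts and were tested. Among these, Lce3b was the one called higher in mTEC than in skin. Lce3b passed the filter through mTEC, where it is high, so the call does not set it apart from Lce genes that were not tested. It had 35, 15 and 52 reads in the mTEC libraries (1.76, 0.837 and 2.25 CPM), 5, 3 and 0 in cTEC, and none in skin, colon or lung. The mTEC reads were 21.5-fold above a floor of 3 reads over the skin group. Low counts in skin were clumped, so this is not a firm lower bound. It was 3.50 ± 0.93 above cTEC on the log2 scale (edgeR adjusted p = 0.0269), with an adjusted p of 0.0689 under the replicate block. Lce3a, which was not tested, had the same distribution, with 19, 3 and 20 reads in mTEC and none in skin. The reads of Lce3d in skin, 36 in all, came from replicate 3, as did the 10 reads of Lce3e.

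Among the Lce1 genes, Lce1m was read in both tissues. It was at 1.16, 0.781 and 1.47 CPM in mTEC, 1.504, 0.265 and 3.70 CPM in skin and 0.190, 0.111 and 0 CPM in cTEC. The skin libraries spanned the mTEC ones. It was 3.39 ± 1.06 above cTEC on the log2 scale (edgeR adjusted p = 0.0395, and 0.0736 with the replicate block). Of the other 13 Lce1 genes, 5 had no read in skin, 5 had skin reads in 1 library and 3 had them in 2 libraries. Among those with reads in 1 library, Lce1h had 16 in skin replicate 1, Lce1a1 had 7 in replicate 2 and Lce1f had 14 in replicate 3. Lce1b had 8, 8 and 0 reads in skin, Lce1a2 had 0, 1 and 7, and Lce1c had 0, 4 and 4. These last genes had no read in mTEC replicate 2, where Lce1h, Lce1a1 and Lce1f had 8, 4 and 6 reads. Over all libraries Lce1a1 had 67 sense reads and 46 on the opposite strand, so part of its sense reads may be background. Between 9.12% and 27.1% of the 50-base windows of the Lce1 genes other than Lce1m occur in another gene, and reads from such windows are not placed uniquely. Lce1d, Lce1e, Lce1g and Lce1i had 20 to 26 reads each over the mTEC libraries and none in skin. The 6 members detected in no group had 5 to 23 reads each in mTEC.

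Lce6a ran the other way. It was at 2.35, 0.795 and 0.788 CPM in skin (47 reads) and at 0.251, 0 and 0.347 CPM in mTEC (13 reads). The skin libraries were above those of mTEC, with a log2 difference of -2.63 ± 1.04 for mTEC (edgeR adjusted p = 0.0462). This call was lost in many of the alternatives, with adjusted p-values up to 0.155.

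Repetin (Rptn), a fused S100 gene with its highest levels in the thymus, is an envelope precursor known from tongue, forestomach and hair follicle. It was at 96.0, 36.4 and 36.4 CPM in mTEC and 32.4, 14.4 and 22.0 CPM in cTEC. In the other groups it was at 0, 1.59 and 3.33 CPM in skin, 0.624 to 0.999 CPM in colon and 0.0289 to 0.553 CPM in lung. Every thymic library was above every other library, and the lowest mTEC value was above the highest cTEC value. The log2 difference from skin was 5.01 ± 0.83 for mTEC (edgeR adjusted p = 0.000147) and 3.72 ± 0.79 for cTEC (adjusted p = 0.00113). Between mTEC and cTEC it was 1.29 ± 0.68 (adjusted p = 0.182), which did not pass. In TPM, Rptn averaged 23.6 ± 15.3 (SD, n = 3) in mTEC and 9.46 ± 3.99 in cTEC, and was below Sprr1a in both.

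Trichohyalin, the protein that hardens the inner root sheath of the hair, gave a result for skin that rested on 1 library. Tchh was at 40.2, 47.8 and 36.0 CPM in cTEC, 35.6, 29.9 and 20.6 CPM in mTEC and 12.1, 12.3 and 11.8 CPM in lung. In skin it was at 6.11 and 5.03 CPM in replicates 1 and 2 and at 104 CPM in replicate 3. With all libraries, the difference between mTEC and skin did not pass (log2 difference -0.43 ± 0.76, edgeR adjusted p = 0.654). Without skin replicate 3, mTEC was 2.39 above skin (adjusted p = 4.45e-06). In that library Krt71, a keratin of the inner root sheath, was at 564 CPM, against 0 and 0.265 CPM in the other skin libraries, and its part in the Tchh value was not tested. Every cTEC library was above every mTEC library, but the difference of mTEC from cTEC did not pass (-0.53 ± 0.76, adjusted p = 0.657). The fit takes the spread of a gene over all groups, so the wide range of Tchh in skin enters this SE. The p-value is therefore not a measure of the spread between thymic pools alone.

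Filaggrin, whose breakdown products keep the outer skin moist, was also uneven between skin libraries. Flg was at 0, 0.618 and 9.33 CPM in skin, 6.78, 2.12 and 4.85 CPM in mTEC and 3.09, 0.167 and 0.839 CPM in cTEC. The mTEC values lay within the skin range, and the log2 difference was 0.43 ± 1.17 (edgeR adjusted p = 0.771). Without skin replicate 3 it was 3.86 (adjusted p = 0.015). Flg2, a filaggrin-like protein, was steadier in skin, at 3.38, 7.33 and 19.2 CPM against 0.402, 0.223 and 0.390 CPM in mTEC, a log2 difference of -4.85 ± 0.85 for mTEC (adjusted p = 0.000409).

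Hornerin and cornulin completed the fused S100 set. Hrnr, a filaggrin-like repeat protein, was at 7.68, 2.12 and 3.77 CPM in mTEC, 1.13, 3.97 and 7.70 CPM in skin and 1.19, 0.111 and 0.336 CPM in cTEC. The mTEC and skin libraries overlapped and their difference did not pass (0.07 ± 0.82, edgeR adjusted p = 0.947), and mTEC was 3.01 ± 0.91 above cTEC (adjusted p = 0.0355). Crnn, a squamous protein of the oesophagus, was at 8.39, 3.63 and 5.11 CPM in mTEC and 0, 0.265 and 3.82 CPM in skin. The groups overlapped at skin replicate 3, and the difference did not pass at a log2 difference of 1.995 ± 0.94 (adjusted p = 0.082), and without skin replicate 3 it was 5.36 (adjusted p = 0.00019). Colon, at 1.52, 1.43 and 0.980 CPM, had Crnn above skin replicates 1 and 2 and below replicate 3.

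Within a group, many members ordered the libraries alike. In mTEC, 45 members had reads and 37 of them were lowest in replicate 2, where 42.1% of protein-coding genes were lowest. Aire was at 613, 242 and 587 CPM in mTEC replicates 1, 2 and 3, and Fezf2, another regulator of peripheral genes there, at 277, 213 and 313 CPM. In skin, 21 of the 34 members with reads were highest in replicate 3 (39.5% of protein-coding genes), and in cTEC 25 of 39 were highest in replicate 1 (39.9%). Whether Aire or the makeup of the sorted cells had a part in these values was not tested.

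The partners that build the envelope outside the complex were far below skin in mTEC. Of 18 such genes, 9 were higher in mTEC than in cTEC and none lower (15.2% and 9.45% of tested genes), with a median log2 difference of 1.24 (0.07 over all tested genes). Among them were Dsg1a, a desmosomal cadherin, at 3.62 ± 0.32 (edgeR adjusted p = 1.01e-05), and Krt77, a keratin, at 2.49 ± 0.47 (adjusted p = 0.00276). Against skin, all 18 were lower in mTEC (22.4% of tested genes), with a median of -5.02 (0.22 over all tested genes). Sbsn, suprabasin, differed by -6.34 ± 0.25 (adjusted p = 5.5e-10) and Ppl, the envelope scaffold periplakin, by -3.35 ± 0.14 (adjusted p = 1.1e-09). Krt10, the main keratin of the suprabasal layers, was at 10621 to 15899 CPM in skin and 32.2 to 71.9 CPM in mTEC.

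The enzymes and lipid genes of the barrier were less uniform. Of 19, 7 were higher and 1 lower in mTEC than in cTEC (15.2% and 9.45% of tested genes), with a median log2 difference of 1.28 (0.07 over all tested genes). Against skin, 1 was higher and 13 lower in mTEC (34.6% and 22.4%), with a median of -2.26 (0.22 over all). Alox12b, a lipoxygenase of barrier lipid synthesis, was 3.07 ± 0.51 above cTEC (edgeR adjusted p = 0.000948), and Cers3, a ceramide synthase, differed by -1.68 ± 0.24 (adjusted p = 0.000288). Tgm1, the transglutaminase of the envelope, overlapped between mTEC (34.5, 52.9 and 19.5 CPM) and cTEC (32.4, 48.5 and 16.1 CPM), below the 57.6, 76.3 and 83.8 CPM of skin.

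Regulators of keratinocyte differentiation were mostly lower in mTEC than in skin. Of 27, 11 were higher and 2 lower in mTEC than in cTEC (15.2% and 9.45% of tested genes), with a median of 0.49 (0.07 over all). Against skin, 2 were higher and 21 lower in mTEC (34.6% and 22.4%), with a median of -1.66 (0.22 over all). Zfp750 and Grhl3, activators of late differentiation, were 1.81 ± 0.17 and 2.26 ± 0.30 above cTEC (edgeR adjusted p = 1.57e-05 and 0.000159). Trp63, another gene of this list, ran the other way, at 404, 328 and 388 CPM in cTEC and 186, 214 and 236 CPM in mTEC. Elf3 and Ehf, epithelial Ets factors, were the 2 above skin, at 2.12 ± 0.26 and 1.55 ± 0.42 (adjusted p = 1.19e-05 and 0.00555), while Gata3 and Grhl1 were below it, at -4.60 ± 0.22 and -3.10 ± 0.16 (adjusted p = 2.06e-09 and 3.44e-09). Of the other genes of the complex, 17 of 20 were tested, with 6 higher and 1 lower in mTEC than in cTEC (15.2% and 9.45% of tested genes; medians 0.75 and 0.07). Against skin 7 were higher and 8 lower in mTEC, where 34.6% and 22.4% of tested genes were, with medians of 0.28 and 0.22.

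The promoters of the members shared short sequence motifs, which are given as a description. The 250 bases before the start were available for 42 of the 46 members in the RefSeq table on GRCm38.p6, which holds 27025 promoters. The AP-1 motif TGANTCA, read on both strands, was in 15 of 42 members (35.7%) and in 6.87% of all promoters. The TATA box TATAAA was in 20 members (47.6%) and in 12.97% of all. The octamer ATGCAAAT was in 7 members (16.7%), all of them Sprr2 genes, and in 1.61% of all. The same 7 genes were among the 15 with the AP-1 motif. Compared without gaps, their promoters were identical at 27.6% (Sprr2f and Sprr2k) to 88% (Sprr2d and Sprr2e) of positions. Genes of such a family are not independent cases. By contrast, CCACCC was in 23.8% of members and 27.7% of all, and the interferon-stimulated response element in no member and 3.04% of all. Motif matches are not binding sites, and no binding was measured.

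A few of these promoters are shown because their genes had different distributions: Sprr2h in skin and colon (chr3:92385435-92385684, plus strand), Lor highest in skin (chr3:92083143-92083392, minus strand), Rptn highest in the thymus (chr3:93393449-93393698, plus strand) and Lce3b in mTEC (chr3:92932729-92932978, plus strand). Each is written in the direction of transcription, with the AP-1 and octamer matches in capitals.
Sprr2h: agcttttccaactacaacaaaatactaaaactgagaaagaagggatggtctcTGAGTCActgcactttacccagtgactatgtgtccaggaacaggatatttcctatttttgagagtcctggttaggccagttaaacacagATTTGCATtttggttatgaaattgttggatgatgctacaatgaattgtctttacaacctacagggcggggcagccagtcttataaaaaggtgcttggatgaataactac
Lor: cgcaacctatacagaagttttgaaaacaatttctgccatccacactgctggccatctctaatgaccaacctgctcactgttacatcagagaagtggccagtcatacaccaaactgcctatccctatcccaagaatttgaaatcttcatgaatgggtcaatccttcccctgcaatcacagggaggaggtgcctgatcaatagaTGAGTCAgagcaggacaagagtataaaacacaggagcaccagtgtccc
Rptn: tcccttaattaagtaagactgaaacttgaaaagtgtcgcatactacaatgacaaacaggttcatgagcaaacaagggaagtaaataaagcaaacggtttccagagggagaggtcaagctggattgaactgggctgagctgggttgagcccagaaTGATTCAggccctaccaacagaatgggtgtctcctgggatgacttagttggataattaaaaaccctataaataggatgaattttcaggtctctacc
Lce3b: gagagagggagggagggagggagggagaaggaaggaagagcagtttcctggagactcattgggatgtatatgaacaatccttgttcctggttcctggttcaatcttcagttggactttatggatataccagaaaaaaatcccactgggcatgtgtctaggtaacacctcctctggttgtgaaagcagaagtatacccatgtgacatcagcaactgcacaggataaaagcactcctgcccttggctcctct
The AP-1 match began 198 bases before the start in Sprr2h, 48 in Lor and 96 in Rptn, and the octamer of Sprr2h, on the minus strand, began 109 bases before it. The Lce3b window held neither run of letters.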

How the data were processed

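RNA from 15 libraries was analysed, 3 in each of 5 groups. The submitters' processing notes name bcl2fastq 2.20, STAR 2.5.1b, RSEM 1.2.28 and GRCm38, with no annotation release named. The authors deposited, per library, read counts per gene by strand, and RSEM expected counts and TPM. The sense-strand read count (column 4, reads placed uniquely) was tested. Expected counts, as deposited by the authors, were rounded and used as an alternative. TPM, as deposited by the authors, was used to compare levels between genes. Gene identifiers were matched to GENCODE M21 (50376 of 50600), and rows naming no gene, with 24.2% to 46.9% of reads, were left out. Counts were scaled with TMM, filtered with filterByExpr and fitted in 1 model of all groups (edgeR 4.0.16, R 4.3.3), with p-values adjusted over 19107 genes. SE is the log2 difference over the square root of F. Tests were checked on simulated data.

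Members and lists were chosen with earlier results of these data known. Named were the 10 single-copy members, up to 4 members per family by mean CPM, members detected in mTEC and not in skin or the reverse, and up to 2 list genes per direction by p. Sprr2a1, Sprr2a2, Krt4, Krt10, Krt13, Krt71, Tgm1, Trp63, Aire and Fezf2 were named after their values were seen. In mTEC and cTEC, libraries of the same number deviated together (r = 0.29, 0.278 and 0.156 over genes), a hint of pairing from the data and not from the labels; other pairs of groups gave -0.0636 to 0.114. The alternatives were another filter, scaling, strand setting, count type, tool (DESeq2 1.42.0), design and each library left out. The bounds for a group without reads use 3 reads over the group and cover counting error only. They take reads as independent, while low counts in skin replicates 1 and 3 and cTEC replicate 3 were clumped.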

Additional observations from a re-analysis of the deposited data

How the results depend on the processing

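Counts of members called in a comparison with few reads per gene moved with the settings. For mTEC higher than cTEC, 10 in the analysis as reported, there were 19 with no filter on low counts, 0 in a test for more than 2-fold, 7 with a replicate block over all groups and 6 with a replicate block within the thymic groups, an alternative chosen after seeing the data; leaving out 1 library gave 2 to 17. The blocks changed no other count of calls by over 1.5 times. Members higher in mTEC than in skin, reported as 6, came to 14 with no filter, 3 when only these groups were fitted, and 4 to 12 with 1 library left out, 12 being without skin replicate 3. Members higher in cTEC than in skin ranged from 2 to 4. With no filter, 35 were higher in mTEC than in colon and 41 than in lung. Fitted alone, skin had 11 members above colon and 11 above lung, and lung had 1 above mTEC; with 1 library left out, lung had 0 to 1 members above mTEC and 0 to 1 above skin. A library left out also changes which genes pass the filter, so up to 35 members were tested. With 1 skin library left out, the log2 difference of Tchh went from -0.94 to 2.39 for mTEC against skin and from -1.13 to 2.17 for skin against lung, and that of Crnn from -1.04 to 2.88 for cTEC against skin and from -3.24 to 0.66 for skin against colon. Each reversed without skin replicate 3 (edgeR adjusted p = 4.45e-06, 0.00184, 0.0195 and 0.00819 in that order), and the cause was not tested. Detection in cTEC was 30 at 3 reads over the group and 7 at 10 reads in each library, in mTEC 18 at the latter, and in skin 32 at the former. At 10 CPM in each library the counts were 3 (cTEC), 4 (mTEC), 4 (skin), 2 (colon) and 2 (lung); at 1 TPM, 9 passed in cTEC and 26 in mTEC. Members at 1 CPM in cTEC ranged from 5 to 8 with 1 library left out, 8 being without replicate 3. Of all values for single members under the alternatives, 5019 kept their direction and side of the threshold, 226 lost a call, 86 gained one and 4 reversed. Reads limit the low members most: 3 reads over a group correspond to 0.0302 CPM in lung and 0.0780 CPM in skin.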
